A study of Mus musculus with 17 samples.

Results

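NRF2 targets and the genes of glutathione synthesis were examined in the mouse heart as a set of 10 genes. They were taken by gene name from a table of read counts for 56748 genes and are Nfe2l2, Gclc, Gclm, Gsr, Hmox1, Nqo1, Txnrd1, Srxn1, Cth and Cbs. Of the 10, 9 had enough reads to be tested among 16195 genes, and Cbs did not. The mice were 12 to 16 months old, with 8 hearts in the control group (Ctrl) and 9 in the hMut group, and the question was how the heart transcriptome of hMut mice differed from that of controls. The hMut genotype was Polg iMut/iMut; +/Ckmm-cre, in which cre recombinase, under a muscle creatine kinase promoter that is active in heart and skeletal muscle, removes a floxed wild-type cassette and leaves a mitochondrial DNA polymerase without proofreading. For the Ctrl mice, the sources used here give no genotype beyond the name of the group. Polyadenylated RNA of heart tissue was sequenced from 17 samples in all, and no treatment was given to either group.

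NRF2, the transcription factor encoded by Nfe2l2, is held at a low level by KEAP1, which marks it for degradation. Oxidants and electrophiles modify KEAP1, and the NRF2 that then escapes pairs with small MAF proteins on antioxidant response elements (AREs) of genes for glutathione synthesis, thioredoxin reduction, quinone reduction and heme breakdown. Glutathione is made from glutamate, cysteine and glycine. Its first and rate-limiting step is catalysed by a pair of subunits, GCLC and GCLM, and oxidised glutathione is reduced again by GSR. Part of the cysteine can come from methionine by transsulfuration, in which CBS and CTH act in turn, a route best known from the liver.

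As the antioxidant response element is the feature by which these genes are usually grouped, the promoters of 4 members are shown. The stretch from 250 bases before to 50 bases after the start of the canonical GENCODE transcript (for Txnrd1 a start within the span of the gene) was read from GRCm39, 5′ to 3′ on the strand of the gene, and capitals mark each match to an ARE core, TGACNNNGC or TGAGNNNGC, on either strand. Srxn1 held the most matches, Txnrd1 and Gclm held 1 each, and Nqo1 held none in this window. The Srxn1 promoter lies at chr2:151947194-151947493 on the plus strand, the Txnrd1 promoter at chr10:82694763-82695062 on the plus strand, the Gclm promoter at chr3:122038876-122039175 on the plus strand and the Nqo1 promoter at chr8:108129885-108130184 on the minus strand.
Srxn1: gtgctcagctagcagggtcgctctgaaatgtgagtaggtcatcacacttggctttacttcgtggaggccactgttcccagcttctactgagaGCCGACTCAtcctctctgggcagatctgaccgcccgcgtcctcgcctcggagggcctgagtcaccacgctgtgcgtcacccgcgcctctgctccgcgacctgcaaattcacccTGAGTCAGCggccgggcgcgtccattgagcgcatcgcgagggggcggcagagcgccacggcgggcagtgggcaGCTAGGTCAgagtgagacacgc
Txnrd1: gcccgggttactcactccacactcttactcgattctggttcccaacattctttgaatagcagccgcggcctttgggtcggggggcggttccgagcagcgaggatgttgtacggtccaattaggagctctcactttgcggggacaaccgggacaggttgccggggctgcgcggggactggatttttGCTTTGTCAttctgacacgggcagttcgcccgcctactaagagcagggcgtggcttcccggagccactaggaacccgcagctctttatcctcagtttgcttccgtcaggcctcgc
Gclm: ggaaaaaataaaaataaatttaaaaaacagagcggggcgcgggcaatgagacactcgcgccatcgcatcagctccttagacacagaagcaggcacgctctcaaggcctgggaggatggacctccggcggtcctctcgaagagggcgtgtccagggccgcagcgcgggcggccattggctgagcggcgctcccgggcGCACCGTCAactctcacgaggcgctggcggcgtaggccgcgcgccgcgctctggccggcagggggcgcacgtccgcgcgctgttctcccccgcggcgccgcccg
Nqo1: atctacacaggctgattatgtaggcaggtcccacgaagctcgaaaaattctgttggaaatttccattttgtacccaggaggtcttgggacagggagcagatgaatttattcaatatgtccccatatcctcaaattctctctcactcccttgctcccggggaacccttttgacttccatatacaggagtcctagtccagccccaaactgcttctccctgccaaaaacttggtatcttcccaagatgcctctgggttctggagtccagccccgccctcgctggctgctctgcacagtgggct

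Positions were counted from the start, which is base 1, and negative numbers lie before it. The first base of the match was at −54 in Gclm, where the opposite strand read TGACGGTGC. In Txnrd1 it was at −65, with TGACAAAGC on the opposite strand. In Srxn1 the TGAG form was found at −158 and −45 and the TGAC form at 29. The Srxn1 match at −45, TGAGTCAGC, also holds the AP-1 motif TGAGTCA. Hmox1, not printed, held 2 matches to the TGAG form. The other members not printed, Gclc, Gsr, Nfe2l2, Cth and Cbs, held none in the 300 bases. For Nqo1 the match nearest to the window was TGAGTCGGC at −339, outside it. Whether matches went with a change in level was not tested. Together, 4 of 10 members had either form in the 300 bases, against 27.3% of 21770 promoters of the same length, and within 2000 bases before the start 10 of 10 members had a match, against 80.3% of all promoters. The C/EBP-ATF element TGATGNAA, which ATF4 binds with a C/EBP partner, was found in 0 of 10 members in the 300 bases and in 3.84% of all promoters. These short strings occur often, and a match is a string of letters, not a measured binding site.

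Total counts lay between 32915159 and 46486964 per library. Mitochondrially encoded genes held 23.5% to 30.9% of the counts in Ctrl hearts and 15.9% to 23.0% in hMut hearts, without overlap. Polg itself read 47.0, 59.6 and 65.1 CPM (lowest, median and highest) in hMut hearts and 27.1, 32.0 and 47.2 CPM in Ctrl hearts, where CPM is the count per 1000000 counts of the scaled library size, and 8 of 9 hMut hearts exceeded the whole Ctrl range. The 8 cardiomyocyte markers, among them Myh6 and Tnnt2, were present in every library, with summed levels of 39203 to 47251 CPM in Ctrl hearts and 30047 to 45871 CPM in hMut hearts. Some libraries stood apart. The hearts hMut 6 and hMut 9 had the highest summed macrophage markers (1386 and 722 CPM, with all other hearts at 456 CPM or below) and fibroblast markers (2054 and 1577 CPM, with all others at 1161 CPM or below), and the lowest cardiomyocyte markers (31837 and 30047 CPM). Ctrl 3 and hMut 4 held 469 and 143 CPM of 10 hepatocyte markers such as Alb and Fabp1, a list added after values had been seen, whereas Ctrl 2 held 29.1 CPM, hMut 2 held 15.4 CPM and the others at most 3.07 CPM. In whole hearts, a change in the number of cells of a type and a change in RNA per cell cannot be told apart. Values with and without these libraries are given below for each called member, and the part that the other cell types had in each result was not tested.

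In the hMut hearts, 6 of the 9 tested members were higher and none was lower: Txnrd1, Gclc, Srxn1, Gsr, Hmox1 and Gclm. The background of this comparison was 4.62% of all tested genes called in either direction and 3.48% called higher, in edgeR's quasi-likelihood test (threshold 0.05 after Benjamini-Hochberg adjustment over 16195 genes). Cth, Nfe2l2 and Nqo1 did not pass the test. The median log2 difference (hMut minus Ctrl) of the 9 tested members was 0.35, and that of all tested genes was 0.0023. The rises were small for the enzymes of glutathione synthesis and recycling and larger for Srxn1 and Hmox1. Leaving out hMut 6 and hMut 9 left 3 members called (Gclc, Txnrd1 and Srxn1), and leaving out Ctrl 3 and hMut 4 left 5, all of the 6 except Gclm.

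**Figure D1:**
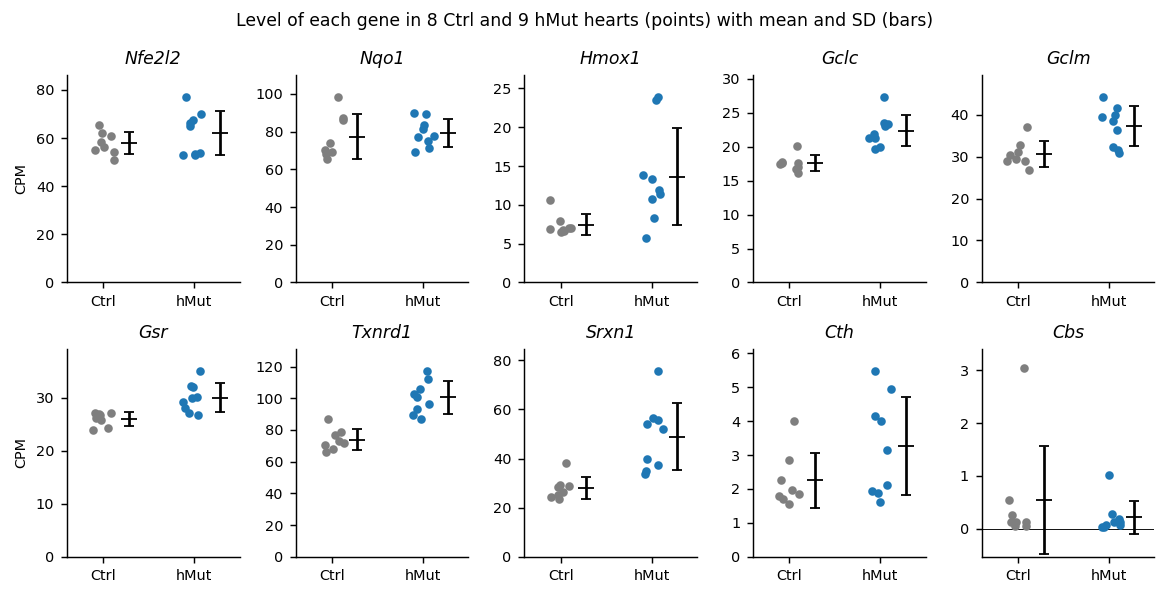
Level of each of the 10 genes in CPM (vertical axis, starting at 0 except for Cbs, whose SD bar reaches below 0) in 8 Ctrl hearts (grey) and 9 hMut hearts (blue). Points are hearts and bars are the mean and SD. The hMut hearts lay above the Ctrl hearts without overlap for Txnrd1, while for Nqo1 all 9 lay within the Ctrl range.

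Nfe2l2 lies at chr2:75505857-75534985 on the minus strand (GRCm39, as are all coordinates here). It was expressed at 51.0, 57.3 and 65.3 CPM (lowest, median and highest) in the 8 Ctrl hearts and at 52.8, 65.2 and 77.1 CPM in the 9 hMut hearts. The groups overlapped, with 4 of 9 hMut hearts above every Ctrl heart and the lowest hMut hearts beside the lowest Ctrl hearts. The values followed the numbering of the hearts. They were 51.0 to 56.1 CPM in Ctrl 1 to 4 and 52.8 to 53.9 CPM in hMut 1 to 4. In Ctrl 5 to 8 they were 58.5 to 65.3 CPM, and in hMut 5 to 9 they were 65.2 to 77.1 CPM. This split was seen after the fact and was not tested. The log2 difference was 0.10 (SE 0.079, 95% interval −0.064 to 0.27, adjusted p = 0.412, edgeR's quasi-likelihood test). NRF2 is controlled mainly through the stability of the protein, which mRNA counts do not measure.

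Nqo1, at chr8:108114857-108129838 on the minus strand, encodes the quinone reductase that is a widely used readout of NRF2. Its levels were 65.5, 71.9 and 98.4 CPM in Ctrl hearts and 69.2, 77.6 and 89.9 CPM in hMut hearts. None of the 9 hMut hearts left the range of the Ctrl hearts, and the highest value of all 17 was in Ctrl 4. The log2 difference was 0.04 (SE 0.080, 95% interval −0.13 to 0.21, adjusted p = 0.784 by edgeR). Whether Nqo1 differed from the called members was not tested.

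Hmox1, at chr8:75820249-75827217 on the plus strand, encodes heme oxygenase 1, which breaks down heme, and is abundant in macrophages that clear red cells. In Ctrl hearts it read 6.55, 6.95 and 10.7 CPM. In hMut hearts it read 5.75, 11.9 and 23.9 CPM, the widest spread of the called members (coefficient of variation 45.6% against 18.6% in Ctrl hearts). The heart hMut 2 was below every Ctrl heart, hMut 1 lay within their range and the other 7 of 9 were above it, with hMut 6 and hMut 9 far above the rest at 23.9 and 23.5 CPM. Hmox1 rose by 0.88 on the log2 scale (SE 0.23, adjusted p = 0.0359 by edgeR). Leaving out any 1 of 11 hearts (all Ctrl hearts but Ctrl 3, and hMut 5 to 7 and hMut 9) ended the call, with log2 differences of 0.73 to 0.89 and adjusted p of 0.0550 to 0.0730. The hearts hMut 6 and hMut 9 also had the highest macrophage markers, and without them the log2 difference was 0.53 with an adjusted p of 0.0752 (0.00291 to 0.141 over all 29 alternatives). Without Ctrl 3 and hMut 4 it was 1.0 (adjusted p = 0.0357). None of the 10 macrophage markers passed the test between groups, although their median log2 difference was 0.62. Their summed level was 285 to 415 CPM in Ctrl hearts and 357 to 456 CPM in hMut hearts other than 6 and 9. No macrophage marker was at 0 in every library. The part of macrophages in the level of Hmox1 was not tested.

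**Figure D2:**
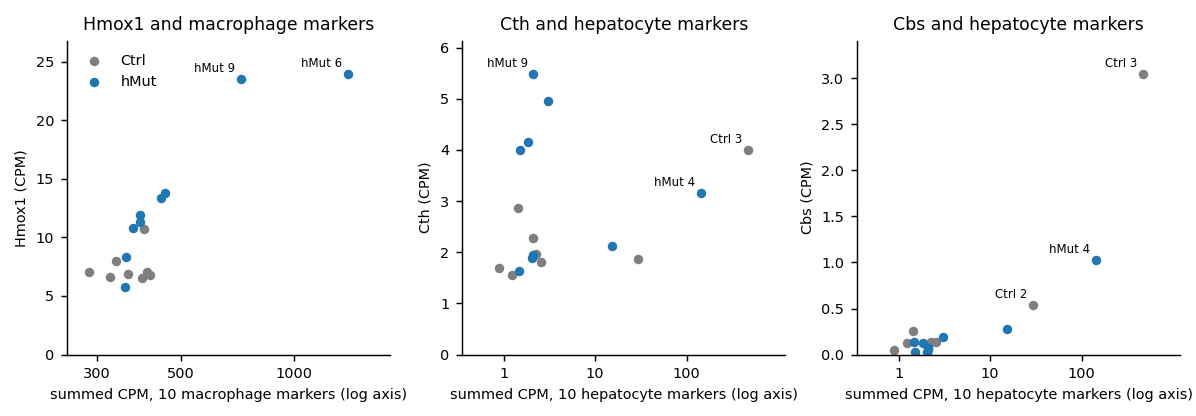
Level in CPM (vertical axes) of Hmox1 against the summed CPM of 10 macrophage markers, and of Cth and Cbs against that of 10 hepatocyte markers (horizontal axes, log scale), for 8 Ctrl (grey) and 9 hMut hearts (blue). The hearts hMut 6 and hMut 9 were highest for Hmox1 and for the macrophage markers, and Ctrl 3 and hMut 4 were highest for Cbs and for the hepatocyte markers.

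The genes of glutathione synthesis rose modestly. Gclc, the catalytic subunit of glutamate-cysteine ligase (chr9:77661817-77701767, plus strand), was at 16.1, 17.5 and 20.1 CPM in Ctrl hearts and at 19.6, 21.8 and 27.3 CPM in hMut hearts. Here 7 of 9 hMut hearts were above every Ctrl heart, and only Ctrl 3 reached into the hMut range. Gclc rose by 0.35 on the log2 scale (SE 0.062, adjusted p = 0.00318 by edgeR), or 27.6% in the mean CPM. It was 0.30 without hMut 6 and hMut 9 (adjusted p = 0.00445) and 0.37 without Ctrl 3 and hMut 4 (adjusted p = 0.00517), within 9.76e-06 to 0.0773 over 29 alternatives.

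Gclm, the modifier subunit of the same ligase (chr3:122039206-122064381, plus strand), was at 26.9, 29.8 and 37.1 CPM in Ctrl hearts and at 30.9, 38.4 and 44.2 CPM in hMut hearts. The groups overlapped more than for Gclc, with 5 of 9 hMut hearts above every Ctrl heart and Ctrl 5 the highest of its group. Its log2 difference of 0.28 (SE 0.078, adjusted p = 0.0466 by edgeR) was close to the threshold. Leaving out any 1 of 13 hearts ended the call, with log2 differences of 0.25 to 0.29 and adjusted p of 0.0590 to 0.0883; these were all Ctrl hearts but Ctrl 5, and hMut 3 and hMut 5 to 9. Without hMut 6 and hMut 9 together, the log2 difference was 0.21 (adjusted p = 0.120), and without Ctrl 3 and hMut 4 it was 0.30 (adjusted p = 0.0560), within 0.0156 to 0.120 over 29 alternatives.

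The ratio of the 2 subunits within a heart, which does not depend on library scaling, did not differ beyond the spread between hearts. The mean log2 ratio of Gclc to Gclm counts was −0.80 ± 0.16 (SD, n = 8) in Ctrl hearts and −0.73 ± 0.16 (SD, n = 9) in hMut hearts. The difference of 0.07 gave a two-sided p = 0.372 in an exact permutation of the group labels, with 24310 splits (adjusted p = 0.372 over 3 ratios). Only 1 of 9 hMut hearts was above every Ctrl heart.

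Gsr, glutathione reductase (chr8:34142551-34188191, plus strand), had the smallest coefficient of variation of the called members in both groups, with 24.0, 26.4 and 27.1 CPM in Ctrl hearts and 26.7, 29.9 and 35 CPM in hMut hearts. All hMut hearts but hMut 8, or 8 of 9, were above every Ctrl heart. Gsr rose by 0.21 on the log2 scale (SE 0.053, adjusted p = 0.0332 by edgeR), the smallest of the called members. Leaving out any 1 of 10 hearts (Ctrl 1, Ctrl 5 to 8, hMut 3, hMut 5 to 7 and hMut 9) ended the call, with log2 differences of 0.18 to 0.21 and adjusted p of 0.0501 to 0.0707. It was 0.18 without hMut 6 and hMut 9 (adjusted p = 0.0908) and 0.23 without Ctrl 3 and hMut 4 (adjusted p = 0.0422), within 0.00837 to 0.151 over 29 alternatives.

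Txnrd1 and Srxn1 passed the test under all 29 alternatives tried. Txnrd1, the cytosolic thioredoxin reductase, a selenoprotein that keeps thioredoxin reduced (chr10:82669785-82733546, plus strand), was at 66.3, 72.4 and 86.8 CPM in Ctrl hearts and at 86.9, 101 and 117 CPM in hMut hearts. All 9 hMut hearts were above every Ctrl heart, as for 0.543% of all tested genes, although the gap between Ctrl 4 (86.83 CPM) and hMut 8 (86.87 CPM) was close to nil. Txnrd1 rose by 0.44 on the log2 scale (SE 0.065, adjusted p = 0.000604 by edgeR), and it lay between 0.40 and 0.48 over 29 alternatives. It was 0.40 without hMut 6 and hMut 9 (adjusted p = 0.00112) and 0.45 without Ctrl 3 and hMut 4 (adjusted p = 0.00387), within 3.85e-08 to 0.0405 over the same alternatives. An antisense transcript, Gm38560, overlaps Txnrd1 and had a mean of 57.3 counts against 3339 for Txnrd1, and the strand setting of the counting was not given in the sources used here.

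Srxn1, sulfiredoxin, which restores over-oxidised peroxiredoxins (chr2:151947436-151953296, plus strand), was at 23.6, 27.4 and 38.1 CPM in Ctrl hearts and at 33.8, 51.8 and 75.6 CPM in hMut hearts. The groups overlapped through Ctrl 4 alone, and 6 of 9 hMut hearts were above every Ctrl heart. Srxn1 rose by 0.81 on the log2 scale (SE 0.15, adjusted p = 0.00419 by edgeR), or 74.7% in the mean CPM. It was 0.68 without hMut 6 and hMut 9 (adjusted p = 0.00647) and 0.84 without Ctrl 3 and hMut 4 (adjusted p = 0.0108), within 7.32e-06 to 0.0485 over 29 alternatives. The hMut 9 heart had the highest Srxn1 level, at 75.6 CPM.

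Within a heart, Txnrd1 was higher relative to Txnrd2, the mitochondrial thioredoxin reductase, in every hMut heart. The mean log2 ratio of their counts was 1.24 ± 0.16 (SD, n = 8) in Ctrl hearts and 1.71 ± 0.20 (SD, n = 9) in hMut hearts, with Ctrl values of 1.05 to 1.41 and hMut values of 1.45 to 1.99. The difference of 0.47 had p = 8.23e-05 in a two-sided exact permutation test (adjusted p = 0.000247 over 3 ratios, smallest possible p 4.11e-05), and 9 of 9 hMut hearts were above every Ctrl heart. Within Ctrl, the ratio was 1.33 to 1.41 in hearts 1 to 4 and 1.05 to 1.15 in hearts 5 to 8. Within hMut, it was 1.45 to 1.68 in hearts 1 to 4 and 1.52 to 1.99 in hearts 5 to 9. The permutation took no account of this order, so the difference of 0.47 averages over it. Txnrd2 itself was at 27.4, 32.1 and 32.9 CPM in Ctrl hearts and at 26.6, 31.1 and 32.8 CPM in hMut hearts, with a log2 difference of −0.03 (95% interval −0.13 to 0.068, adjusted p = 0.699 by edgeR).

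**Figure D3:**
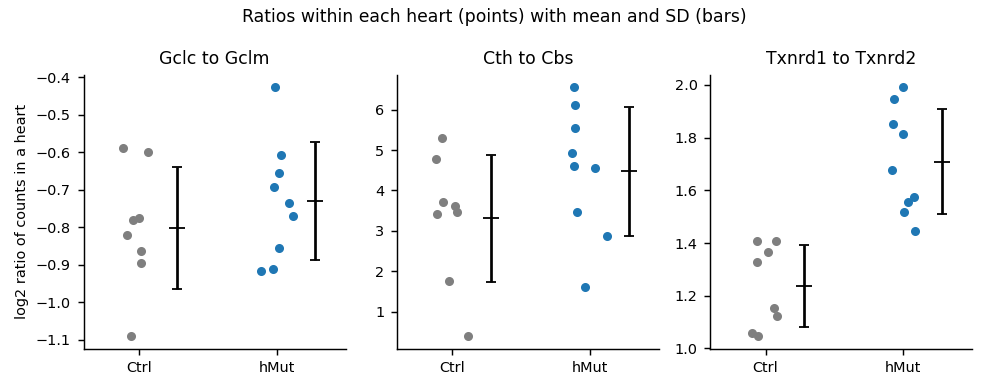
Log2 ratio of the counts of a pair of genes within each heart (vertical axes, which do not start at 0), for 8 Ctrl hearts (grey) and 9 hMut hearts (blue), with the mean and SD as bars. The Txnrd1 to Txnrd2 ratio separated the groups without overlap, at 1.05 to 1.41 in Ctrl and 1.45 to 1.99 in hMut hearts, and the other ratios overlapped.

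Cth, cystathionine gamma-lyase, the second enzyme of transsulfuration (chr3:157599885-157630714, minus strand), was low in the heart. It was at 1.55, 1.91 and 4.0 CPM in Ctrl hearts and at 1.62, 3.15 and 5.48 CPM in hMut hearts. The hMut hearts had 4 values between 1.62 and 2.12 CPM and 5 between 3.15 and 5.48 CPM, and the highest Ctrl value was that of Ctrl 3. The log2 difference was 0.54 (SE 0.26, 95% interval −0.016 to 1.09, adjusted p = 0.205 by edgeR). It was 0.71 without Ctrl 3 and hMut 4, with an adjusted p of 0.131 (0.0671 to 0.439 over 29 alternatives), and did not pass the test in any of them.

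Cbs, cystathionine beta-synthase (chr17:31827868-31856212, minus strand), was near the limit of detection and was not tested. It had 2 to 96 counts in Ctrl hearts and 1 to 43 counts in hMut hearts, and its levels were 0.046, 0.14 and 3.04 CPM in Ctrl and 0.027, 0.12 and 1.03 CPM in hMut hearts. The 2 highest values, in Ctrl 3 and hMut 4, were in the 2 libraries with the most hepatocyte marker counts, and the next, 0.54 CPM in Ctrl 2 and 0.28 CPM in hMut 2, were in the libraries that followed them for those markers. The edgeR fit without a filter on low counts, which tested all 10 members, did not call it. The log2 ratio of Cth to Cbs was 3.31 ± 1.57 (SD, n = 8) in Ctrl and 4.47 ± 1.59 (SD, n = 9) in hMut hearts, a difference of 1.17 with p = 0.149 in the two-sided exact permutation test (adjusted p = 0.223 over 3 ratios). It was 0.75 without Ctrl 3 (adjusted p = 0.302), 1.53 without hMut 4 (unadjusted p = 0.0469 and adjusted p = 0.0704 by the same exact test) and 1.11 without both (adjusted p = 0.145), within 0.0704 to 0.438 over its alternatives.

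Levels per kilobase of the gene length deposited with the counts allow a rough comparison between genes. By this measure Nqo1 was the most abundant member in both groups, at 49.8 ± 7.6 CPM per kb (SD, n = 8) in Ctrl and 51.1 ± 4.72 (SD, n = 9) in hMut hearts, with no overlap in either group with the other members. How that length relates to the transcripts present in the heart is not known here, so the order of genes may shift with it. In Ctrl hearts Nfe2l2 followed at 15.2 ± 1.23 CPM per kb, and then came Txnrd1 (10.4 ± 0.936), Srxn1 (9.92 ± 1.64) and Gsr (9.44 ± 0.454), whose ranges overlapped, that of Srxn1 also with that of Nfe2l2. Gclm (4.87 ± 0.496), Gclc (4.66 ± 0.313) and Hmox1 (4.25 ± 0.789) formed a lower group with overlapping ranges, above Cth at 0.807 ± 0.292 and Cbs at 0.0723 ± 0.137 CPM per kb. In hMut hearts Srxn1 moved from the fourth place to the second, at 17.3 ± 4.83 CPM per kb, though its range overlapped those of Nfe2l2 (16.4 ± 2.38) and Txnrd1 (14.2 ± 1.43). Hmox1 reached 7.79 ± 3.56 CPM per kb and passed Gclc (5.94 ± 0.622) and Gclm (5.91 ± 0.752), also with overlap.

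The called members did not rise to the same extent in every hMut heart. In hMut 5, 6, 7 and 9 all 6 called members were above every Ctrl heart, in hMut 3 and hMut 4 it was 5, in hMut 8 it was 4, and in hMut 1 and hMut 2 it was 2 (Gsr and Txnrd1). The heart hMut 9 had the highest value of all 17 hearts for 5 of the tested members and hMut 6 for 2. The median of the 6 called members relative to the Ctrl mean was 0.11 on the log2 scale in hMut 2 and 0.65 in hMut 9. Among Ctrl hearts, this median lay between −0.11 and 0.049. Since the 6 were called on these same hearts, this order of the hearts is a description.

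**Figure D4:**
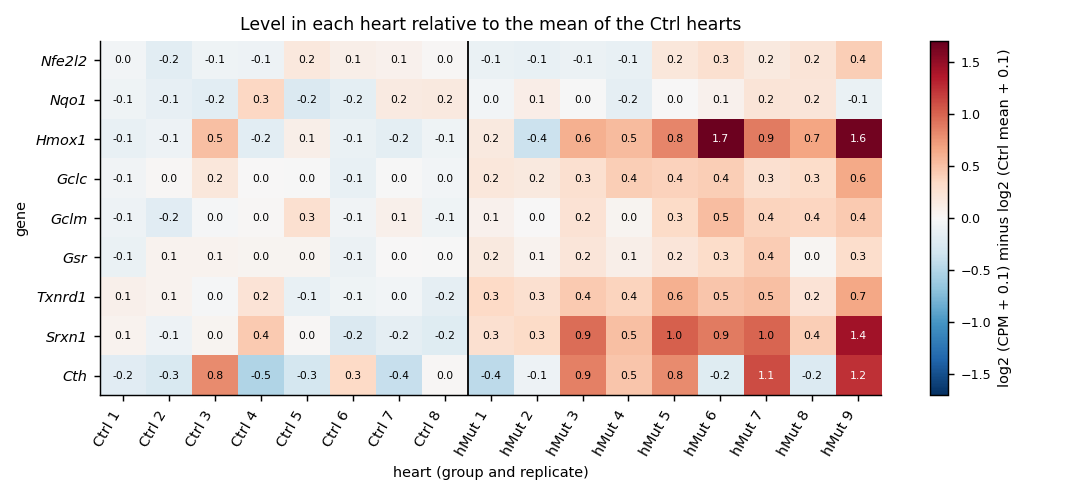
Level of the 9 tested members in each heart (columns) as log2 (CPM + 0.1) minus the log2 of the Ctrl mean plus 0.1, with red above and blue below the Ctrl mean and the line between Ctrl and hMut hearts. The 6 called members were weakly raised in hMut 1 and hMut 2, with medians of 0.18 and 0.11, and most in hMut 9, with a median of 0.65.

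Among 14 regulators and partners of NRF2, 3 rose in hMut hearts and none fell, with a median log2 difference of 0.08 over all 14. Sqstm1, whose product p62 binds KEAP1 and autophagosomes, was at 407, 464 and 527 CPM in Ctrl and 451, 711 and 819 CPM in hMut hearts, a log2 difference of 0.54 (SE 0.10, adjusted p = 0.00551 by edgeR), and 8 of 9 hMut hearts lay over the Ctrl range. The small MAF genes Mafk and Maff, whose products are DNA-binding partners of NRF2 and also of its competitor BACH1, rose by 0.52 (SE 0.11, adjusted p = 0.00895) and 0.82 (SE 0.18, adjusted p = 0.0129 by edgeR). Keap1 and Bach1, named after their values were seen, did not pass, with log2 differences of −0.10 (95% interval −0.20 to 0.0095) and −0.04 (95% interval −0.17 to 0.096).

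Of 37 further NRF2 targets, 33 were tested, 5 rose and none fell, with a median log2 difference of 0.12. Slc7a11, the cystine importer of the xCT exchanger, was barely detected in Ctrl hearts (0.028, 0.10 and 0.35 CPM) and reached 0.74, 3.17 and 5.27 CPM in hMut hearts, 9 of 9 above every Ctrl heart. Its log2 difference was 4.58 (SE 0.46, adjusted p = 9.70e-06 by edgeR), and it is also a target of ATF4, on whose list it stands too. Gsta1 and Gsta2, glutathione transferases with near-identical sequences whose reads may have been split, rose by 1.1 (adjusted p = 0.0212) and 0.93 (adjusted p = 0.0210) and are uncertain as separate genes. Abcc4, an efflux pump, rose by 0.37 (adjusted p = 0.0230), as did Pgd of the pentose phosphate pathway by 0.22 (adjusted p = 0.0431 by edgeR), the latter named after its value was seen. The other 28 tested targets did not pass.

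**Figure D5:**
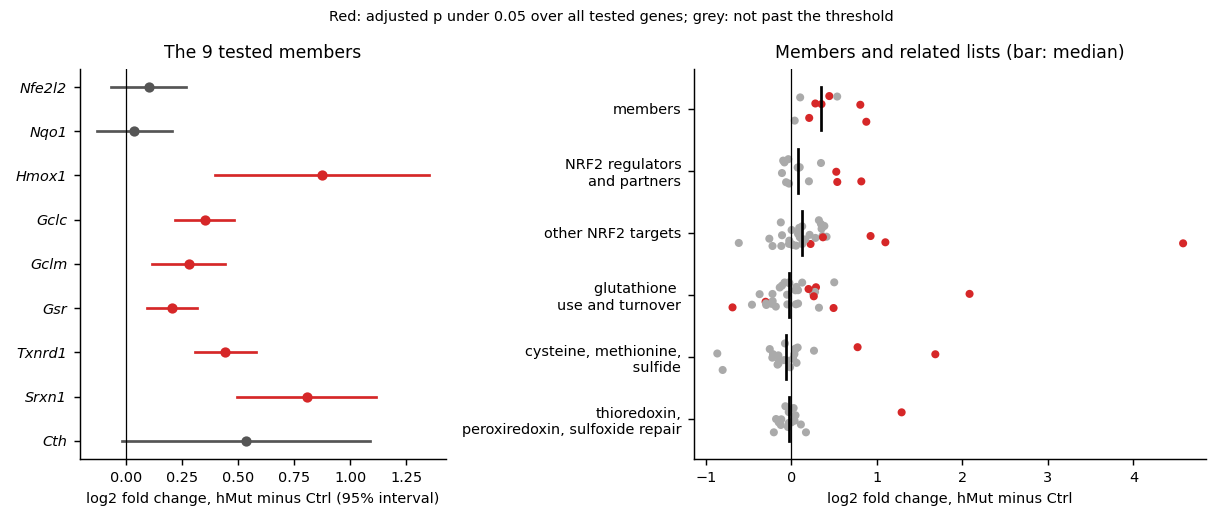
Log2 fold change, hMut minus Ctrl (horizontal axes), of the 9 tested members with 95% intervals (left) and of each tested gene of the members and of 5 related lists (right), where vertical bars are the medians. Red marks an adjusted p under 0.05 over all tested genes. Of the members 6 of 9 are red, and the 5 related lists have 7 red genes at most, with medians of −0.06 to 0.12. The ATF4 pathway list, with 20 of 21 genes called higher and a median of 1.66, is not drawn as a list.

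Of 34 genes that use or turn over glutathione, 32 were tested, 5 rose and 2 fell, with a median log2 difference of −0.03. Esd, which hydrolyses S-formylglutathione, was at 72.4, 78.3 and 81.5 CPM in Ctrl and at 87.6, 112 and 134 CPM in hMut hearts, without overlap (log2 difference 0.49, adjusted p = 0.000640 by edgeR). Chac1, which degrades glutathione in the cytosol and is a target of ATF4, rose by 2.08 (adjusted p = 0.000962), and 9 of 9 hMut hearts were above every Ctrl heart. Slc25a39, which carries glutathione into mitochondria, rose by 0.26 (adjusted p = 0.0206), while Ggct, which cleaves gamma-glutamyl amino acids, fell by 0.30 (adjusted p = 0.0369 by edgeR). The remaining calls, named after their values were seen, were rises of Gss, the second enzyme of glutathione synthesis (0.29, adjusted p = 0.0498), and of Gsto1 (0.20, adjusted p = 0.0498), and a fall of Gstt2 (−0.69, adjusted p = 0.0487).

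Of 25 genes of cysteine, methionine and sulfide metabolism, 22 were tested, 2 rose and none fell, with a median log2 difference of −0.06. These were the transporters Slc1a4, a carrier of neutral amino acids (log2 difference 1.68, adjusted p = 0.000377), and Slc3a2, the heavy chain that pairs with SLC7A11 (0.77, adjusted p = 0.000822 by edgeR), both with 9 of 9 hMut hearts above every Ctrl heart. Of 16 genes of the thioredoxin, peroxiredoxin and sulfoxide repair systems, 1 rose and none fell, with a median of −0.03. It was Sesn2, a stress-induced sestrin that is also a target of ATF4 (1.29, adjusted p = 0.000994 by edgeR). For these lists and those above, the background was 4.62% of all tested genes called in either direction. Every hMut heart was above every Ctrl heart for 0.543% of all tested genes. In the same hearts, 20 of 21 genes of the ATF4 pathway rose and none fell, with a median log2 difference of 1.66, and Mthfd2, Asns, Psat1 and Atf5 had the smallest adjusted p. Slc7a11, Slc3a2, Chac1 and Sesn2 stand on this list and on 1 of the lists above, so the counts are not of separate genes.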

How the data were processed

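RNA was measured in heart tissue of 8 Ctrl and 9 hMut mice, grouped by the depositors' labels. The labels do not state outright that each sample came from a different mouse, so p-values measure the spread between these samples. The authors enriched polyadenylated RNA, cleaned the reads (fastp), mapped them on GRCm39 by HISAT2 (2.2.1), counted reads per gene with featureCounts (2.0.6) and used DESeq2 (1.42.0). The deposited table holds whole-number counts, which the authors had not normalized. The annotation release and the strand setting of the counting are not given in the sources used here, so antisense and overlapping genes cannot be told apart by strand. Gene names, lengths and coordinates are those of the deposited table.

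Genes were filtered with filterByExpr, scaled by TMM and tested with edgeR (4.0.16, R 4.3.3) by glmQLFit and glmQLFTest, with Benjamini-Hochberg adjustment over 16195 genes and a threshold of 0.05. SE and 95% intervals are of the edgeR log2 fold change. CPM uses the TMM-scaled library sizes, and CPM per kb divides by the deposited gene length, whose definition is not given in the sources used here. Ratios of counts (0.5 added to each) were compared with exact permutation tests (NumPy 2.4.6). The fit was tested on simulated data with known changes. Total counts were 32915159 to 46486964 per sample.

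The members, the pathway and marker lists and the tests were chosen with earlier results of these data known, and the hepatocyte markers and some alternatives after the values were seen. All members and Polg were named, and of each pathway list at most the 4 genes with the smallest adjusted p under 0.05, and other genes are said to be named after their values were seen; of each marker list the summed level and defining genes were given. Alternatives were DESeq2, RLE and upper-quartile scaling, limma-voom with sample quality weights (limma 3.58.1), no filter, a mean of at least 50 counts, nuclear protein-coding genes only, sex as a covariate (read from Xist and Y-linked counts), a replicate block, each library left out, and sets of libraries left out. Promoter windows were read from GRCm39 at GENCODE canonical starts, with both strands searched.

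Besides the marker lists of cardiomyocytes, fibroblasts, macrophages and hepatocytes, 6 others were read. Summed levels of endothelial markers were 769 to 981 CPM in Ctrl and 857 to 1157 CPM in hMut hearts, of smooth muscle and pericyte markers 807 to 1078 and 767 to 1176 CPM, of lymphoid markers 2.50 to 42.0 and 4.99 to 63.3 CPM, of blood markers 250 to 1380 and 282 to 1090 CPM, of adipocyte markers 0.046 to 0.87 and 0.11 to 1.71 CPM, and of skeletal muscle markers 1012 to 1448 and 1147 to 1976 CPM. The skeletal muscle sum came almost all from Acta1 (mean 274 CPM in Ctrl and 678 CPM in hMut hearts) and Ckm (972 and 830 CPM). Of these, Acta1 rose (log2 difference 1.31, adjusted p = 0.0385 by edgeR) and Ckm did not pass. The other skeletal muscle markers were near 0, the highest being Tnnt3 at means of 0.53 and 0.85 CPM.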

Additional observations from a re-analysis of the deposited data

Results flagged for a closer look

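A heart far from the other hearts of its group was found in 5 of the 20 sets of values examined (10 genes in each of the Ctrl and hMut groups), by the gap to its nearest neighbour relative to the range of the group. Chance alone flags about 5% of such sets. In the Ctrl group, Ctrl 3 stood apart for Gclc, at 20.1 CPM with the next heart at 17.7 CPM, for Hmox1, at 10.7 CPM with the next at 7.98 CPM, and for Cbs, at 3.04 CPM with the next at 0.54 CPM. Ctrl 4 stood apart for Srxn1, at 38.1 CPM with the next at 29.2 CPM. In the hMut group, hMut 4 stood apart for Cbs, at 1.03 CPM with the next at 0.28 CPM. Ctrl 3 and hMut 4 were also the libraries with the most counts of hepatocyte markers, at 469 and 143 CPM, and the part of liver RNA in these values was not tested.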

How the results depend on the processing

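The direction of every tested member was the same in all 29 alternatives, and Txnrd1 and Srxn1 passed the test in each. Calls of Gclm, Gsr and Hmox1, near the threshold, did not hold in 19, 14 and 15 of the 29, and that of Gclc in 1 (males only, adjusted p = 0.0773). Against 749 genes called, the count was 1517 with DESeq2, which gave a p-value for 35739 genes before its own filtering. It was 2081 with limma-voom and sample quality weights, 463 without a filter on low counts (35739 genes tested), 431 without hMut 6 and hMut 9, 472 without Ctrl 3 and hMut 4, and 139 in males only. Leaving out 1 heart at a time gave 395 to 1792 genes (lowest without hMut 5, highest without hMut 2). Of the 6 members called, 3 were called without hMut 6 and hMut 9 and 3 in males only (Gclm, Txnrd1 and Srxn1), 4 with sex as a covariate, 5 with upper-quartile scaling, and 3 to 6 with 1 heart left out. It was 3 without Ctrl 1, 6, 7 or 8 or without hMut 5, 6, 7 or 9, and in each of these cases Gclc, Txnrd1 and Srxn1 were called. The males-only, the Ctrl 3 and hMut 4 and the unblocked replicate 1 to 8 fits were chosen after seeing the data. The males-only fit left out Ctrl 5, 6 and 7 and hMut 1 and 4, whose Xist counts exceeded their Y-linked counts. It thus had fewer hearts, and an effect of sex cannot be told apart from that loss. Higher genes made up 75.3% of calls in the main setting, 56.5% with limma-voom and sample quality weights and 85.3% without a filter. No scaling moved the median of all genes by over 0.1. The causes of these changes were not tested.

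The labels do not say what the replicate numbers stand for. Correlations of same-numbered hearts' deviations from their group means lay between −0.225 and 0.339. They compare only hearts of the same number, so they cannot show whether runs of numbers share an origin. Nfe2l2 in both groups and the Ctrl ratios of Txnrd1 to Txnrd2 split between hearts 1 to 4 and the later ones, whereas Gclc overlapped. This was seen after the fact, and what the order stands for was not tested. With the replicate number as a block, over replicates 1 to 8, 185 genes and 3 members (Gclc, Txnrd1 and Srxn1) were called, against 415 genes and the same 3 members without the block on the same hearts, which is the fit without hMut 9 and is counted once among the 29. The Txnrd1 to Txnrd2 ratio had an adjusted p of 0.0234 with the block (sign-flip test), and the calls of the 3 ratios were the same in all their alternatives.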
